A study of Mus musculus with 90 samples.

Results

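Immediate early genes are switched on within minutes of a growth factor, a stress or a change of surroundings, before any new protein is made. The genes described here were Dusp1, Gem, Fos, Fosb, Jun, Junb, Egr1, Ier2, Ier3 and Btg2, taken by symbol from the deposited table without outliers. All 10 were found among its 35869 gene symbols, and none was dropped.

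Stimuli act on many of these genes through MAP kinases, which activate transcription factors already present in the cell, and the transcripts are soon degraded. Fos, Fosb, Jun and Junb encode subunits of AP-1, a dimeric transcription factor, and Egr1 encodes a zinc finger factor that holds mouse blood stem cells in quiescence. Dusp1 encodes a phosphatase that shuts MAP kinases off again, Gem a small GTPase that restrains calcium channels, and Btg2 an antiproliferative adaptor of the mRNA deadenylase complex. Ier2 and Ier3 are early response genes of other families, of which Ier3 modulates ERK signalling and cell survival.

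The study asked how cells cultured from CD41pos HSCs, blood stem cells that bear a platelet integrin subunit, differ without RUNX1, a transcription factor of blood development. Cells of 2 appearances were picked after culture, megakaryocyte-like (MK) and not megakaryocyte-like (NMK), megakaryocytes being the cells that shed platelets. KO cells came from MxCre1+/-,RUNX1f/f mice and WT cells from MxCre1-/-,RUNX1f/f mice, so both carried floxed Runx1. In the KO mice Cre is driven by the interferon-inducible Mx1 promoter and is therefore not limited to blood cells. KO and WT mice alike had 4 poly(I:C) injections, and their cells were taken 4 weeks later and cultured for 2 days. The table without outliers held 5 KO MK, 6 WT MK, 13 KO NMK and 9 WT NMK libraries, 33 of the 46 in the full table. Each library is 1 cell, made with SMART-Seq, a full-length cDNA method. The labels tie no library to an animal or culture, so every group counted as 1 sample, no test between groups was possible, and each SD is a spread between cells. Values are TPM, which are abundances scaled to gene length and to a fixed library total. The depth of the libraries is unknown, and a gene listed at 0 may have been missed.

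Some libraries stood apart and bear on what follows. A housekeeping score, the mean log2(TPM + 1) of 14 widely used genes, was 8.80 or more in all but 2 kept libraries, KO NMK B1-1b at 4.80 and B1-2a at 2.54. The libraries labelled KO MK 2 and KO MK B1-4 had megakaryocyte marker scores of 2.65 and 1.49, not above the highest score among NMK libraries of 2.91, with Pf4 at 213.7 and 65.8 TPM. Their summed stem and progenitor markers, with those of the other KO MK libraries, ran from 123.7 to 1552.6 TPM, against 71.7 to 158.4 TPM in WT MK libraries. The stem cell marker Ly6a was at 342.2 and 199.0 TPM in KO MK 2 and B1-4 and at 0.1 TPM or less in the other 3 KO MK libraries. The 5 WT MK libraries without the title prefix B1 correlated with each other at 0.961 to 0.974 over 12524 genes, against 0.740 to 0.921 between KO MK libraries, so the SD of WT MK cells may be too small. Genes above 0 numbered 11896 to 14487 in KO MK, 14089 to 15252 in WT MK, 3011 to 10987 in KO NMK and 5475 to 11715 in WT NMK libraries. Runx1 was at 8.9 to 47.5 TPM in KO MK and 7.6 to 22.2 TPM in WT MK libraries, and at 0 to 41.5 TPM in KO NMK and 0 to 15.7 TPM in WT NMK libraries. A gene-level value does not show whether a floxed segment is gone, so it does not check the genotype.

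RefSeq promoter sequences on GRCm38.p6 were matched by symbol for 7 of the 10 genes, and the 250 bases before the start given there are used here. For Fosb that start lies inside the annotated gene, so its window overlaps the gene. No sequence was matched for Gem, Ier2 and Egr1. Shown are Dusp1, at or near 0 in KO MK cells, and Btg2, high in all kept WT MK cells. Also shown are Fos, listed at 0 in most cells, and Ier3, present in every kept MK cell. All are written 5′ to 3′ on the strand of the gene. Dusp1 and Btg2 lie on the minus strand, at chr17:26508473-26508722 and chr1:134079156-134079405, and Fos and Ier3 on the plus strand, at chr12:85473640-85473889 and chr17:35821463-35821712. Capitals mark the core of the cyclic AMP response element, TGACGT on either strand, and the TATA box, TATAAA on the strand of the gene.
Dusp1: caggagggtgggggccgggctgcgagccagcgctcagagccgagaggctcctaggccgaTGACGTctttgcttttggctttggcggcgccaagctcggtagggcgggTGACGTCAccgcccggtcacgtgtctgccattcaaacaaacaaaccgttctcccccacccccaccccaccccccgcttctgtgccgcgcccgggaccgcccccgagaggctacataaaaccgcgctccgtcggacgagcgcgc
Btg2: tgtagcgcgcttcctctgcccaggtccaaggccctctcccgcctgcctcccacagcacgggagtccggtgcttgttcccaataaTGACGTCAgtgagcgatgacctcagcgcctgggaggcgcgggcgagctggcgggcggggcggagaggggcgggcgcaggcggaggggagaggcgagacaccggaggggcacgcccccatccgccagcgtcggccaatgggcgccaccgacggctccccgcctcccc
Fos: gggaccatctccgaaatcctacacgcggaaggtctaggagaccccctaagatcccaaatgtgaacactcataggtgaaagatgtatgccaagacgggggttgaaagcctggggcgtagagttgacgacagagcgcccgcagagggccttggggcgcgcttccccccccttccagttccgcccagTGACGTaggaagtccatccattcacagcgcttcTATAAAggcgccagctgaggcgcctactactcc
Ier3: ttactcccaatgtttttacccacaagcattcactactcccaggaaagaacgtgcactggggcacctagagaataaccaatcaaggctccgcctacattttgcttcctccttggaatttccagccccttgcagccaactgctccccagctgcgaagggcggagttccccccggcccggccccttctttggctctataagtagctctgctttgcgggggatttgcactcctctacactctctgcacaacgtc
The response element core was found in 3 of the 7 sequences, those of Dusp1, Btg2 and Fos, and in 6.47% of 32851 mouse promoters of the same length. It started at -191 and -143 in Dusp1, counted from the start of the gene, at -166 in Btg2 and at -66 in Fos. In Dusp1 and in Btg2 a copy on the opposite strand overlapped, from -141 to -136 and from -164 to -159, which makes the palindrome TGACGTCA. TATAAA was found in Fos alone among the 7, at -33, and in 7.59% of all promoters. The AP-1 site TGANTCA, searched on both strands, was in none of the 7 and in 6.75% of all promoters. The CArG box, the site of serum response factor, was also in none and in 1.47% of all. A match is a description of the letters and not of a bound site, and other sites may lie outside these windows.

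In the MK cells labelled KO, Dusp1 and Gem were at or near 0 in most cells, whereas Ier2, Ier3 and Junb were present in all of them. Dusp1 was at 0, 0, 0.1, 0 and 0 TPM in the KO MK cells 1A, 1B, 2, B1-3 and B1-4, an order kept below. Gem was at 0 TPM in 4 KO MK cells and at 62.7 TPM in B1-4, a library with few platelet transcripts. In WT MK cells Btg2 was high throughout, with 35.7 to 381.0 TPM. NMK cells of both genotypes were uneven, with several members above 100 TPM in some cells and at 0 in others. Of the 50 member values in KO MK cells, 24 were at 0, against 11 of 60 in WT MK cells. The same count was 55 of 130 in KO NMK cells and 30 of 90 in WT NMK cells. Over all 35869 symbols, the mean number above 0 per library was 12765 in KO MK and 14688 in WT MK cells. It was 8848 in KO NMK and 8871 in WT NMK cells. The WT MK count rests mainly on the 5 alike libraries, so its values are not separate observations.

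**Figure D1:**
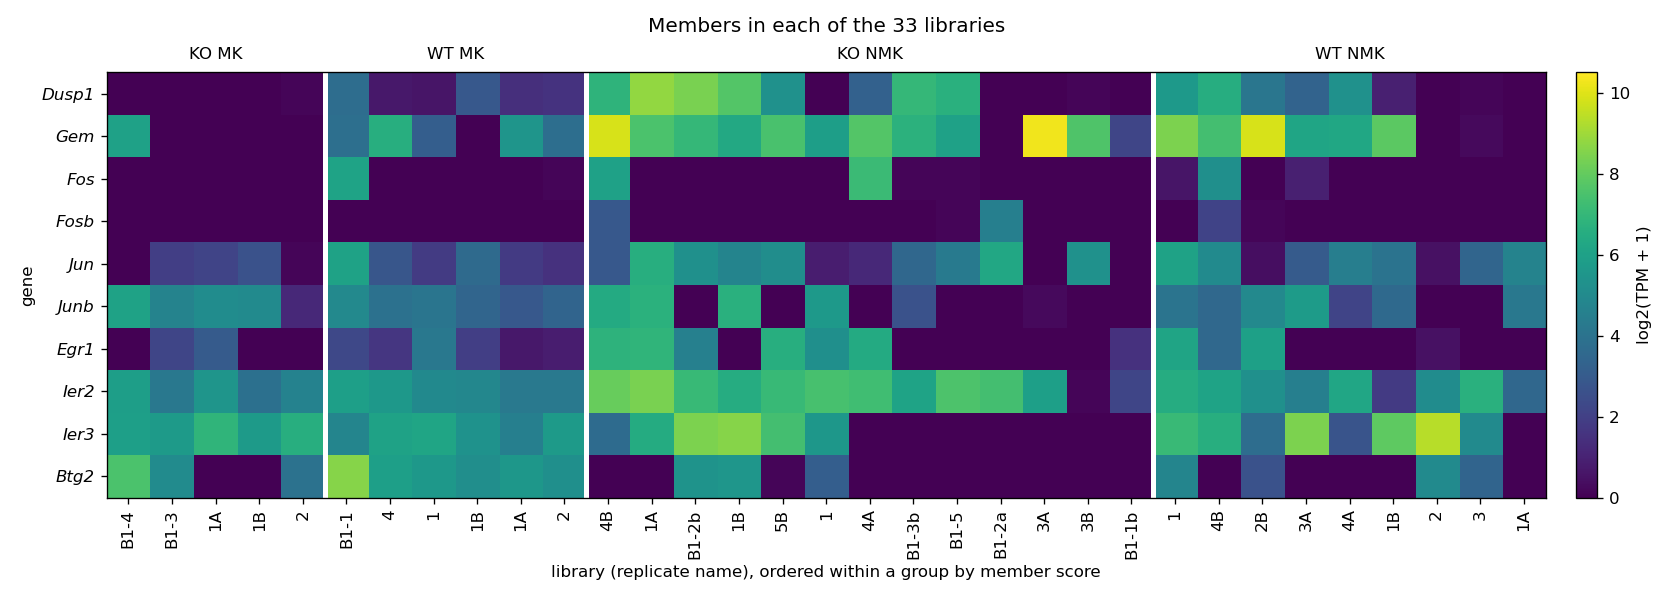
Level of the 10 genes (rows) as log2(TPM + 1) (colour) in each of the 33 libraries (columns), grouped as KO MK, WT MK, KO NMK and WT NMK and ordered within a group by the mean over the genes. The Dusp1 row is at 0 to 0.1 TPM throughout KO MK, the Btg2 row is filled throughout WT MK, and Fos and Fosb are at 0 in most columns.

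The phosphatase Dusp1 (chr17:26505591-26508472) separated KO MK from WT MK cells. It ran from 0 to 0.1 TPM in KO MK cells, against 0.5 to 12.5 TPM with a median of 1.8 in WT MK cells, so these kept cells did not overlap. KO NMK cells ran from 0 to 439.4 TPM with a median of 39.0, and WT NMK cells from 0 to 93.3 TPM with a median of 9.2. Cells with 1 TPM or more were 0 of 5 KO MK (exact binomial 95% interval, counting error only, 0 to 52.2%), 4 of 6 WT MK (22.3 to 95.7%), 8 of 13 KO NMK (31.6 to 86.1%) and 5 of 9 WT NMK (21.2 to 86.3%). The intervals overlap, which does not decide whether the shares differ, and that was not tested. They also count every cell as separate, which the alike WT MK libraries may not be. The WT MK values are low in absolute terms, and 1 of those 6 cells reached 10 TPM.

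The distance between groups was taken as the difference in mean log2(TPM + 1). It was called past the size limit when it was at least 1 and also larger than the pooled SD between cells, with genes kept where either group averaged at least 1 TPM. For Dusp1 it was -4.13 (pooled SD 3.17) between KO MK and KO NMK cells, the lowest but 1 of 13365 genes. It was -1.79 (pooled SD 0.94) between KO MK and WT MK cells. Both were past the size limit. The difference between WT MK and WT NMK cells was -1.08 (pooled SD 2.23), and that between KO NMK and WT NMK cells was 1.27 (pooled SD 3.30), neither past it. Of the 4 KO MK libraries the authors left out, B1-1, B1-1a and B1-1b had Dusp1 at 9.9, 1.9 and 0.7 TPM, within the range of the WT MK cells. Mitochondrial genes took 71.5, 74.8 and 94.8% of the TPM of these 3, and their housekeeping scores were 6.94, 5.64 and 3.37. The fourth, KO MK 1, with a score of 9.22 and 3.73% mitochondrial TPM, had Dusp1 at 0. With every library of the full table, the KO MK and WT MK difference was -0.49.

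Gem (chr4:11704447-11714993) was the lowest of all 13365 genes between KO MK and KO NMK cells, with a difference of -5.31 (pooled SD 2.74). KO NMK cells had 0 to 1226.7 TPM with a median of 126.5. In the 11 kept KO NMK libraries with a housekeeping score of 6 or more, Gem was never below 58.6 TPM. The 4 KO MK cells at 0 therefore lay below all of those 11 cells, and B1-4, at 62.7 TPM, was within their range. Without B1-4 the difference was -6.51, and within the B1 libraries alone, 2 KO MK and 5 KO NMK, it was -1.39 and no longer past the size limit.

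WT MK cells had Gem at 0 to 94.5 TPM with a median of 13.0, and WT NMK cells at 0 to 927.4 TPM with a median of 75.4. The KO MK and WT MK difference was -2.60 (pooled SD 2.45), hardly larger than that SD. Cells with 1 TPM or more were 1 of 5 KO MK (0.505 to 71.6%) and 5 of 6 WT MK (35.9 to 99.6%). Between WT MK and WT NMK cells the difference was -1.33 (pooled SD 3.39), and between KO NMK and WT NMK cells 1.38 (pooled SD 3.29). The plot of Dusp1 against Gem covers 31 libraries with a housekeeping score of 6 or more, of which 24 had either gene at 1 TPM or more and 16 had both, and the 2 of low score. Among KO NMK cells 3 had Gem at 58.6 TPM or more with Dusp1 at 0.1 TPM or less.

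**Figure D2:**
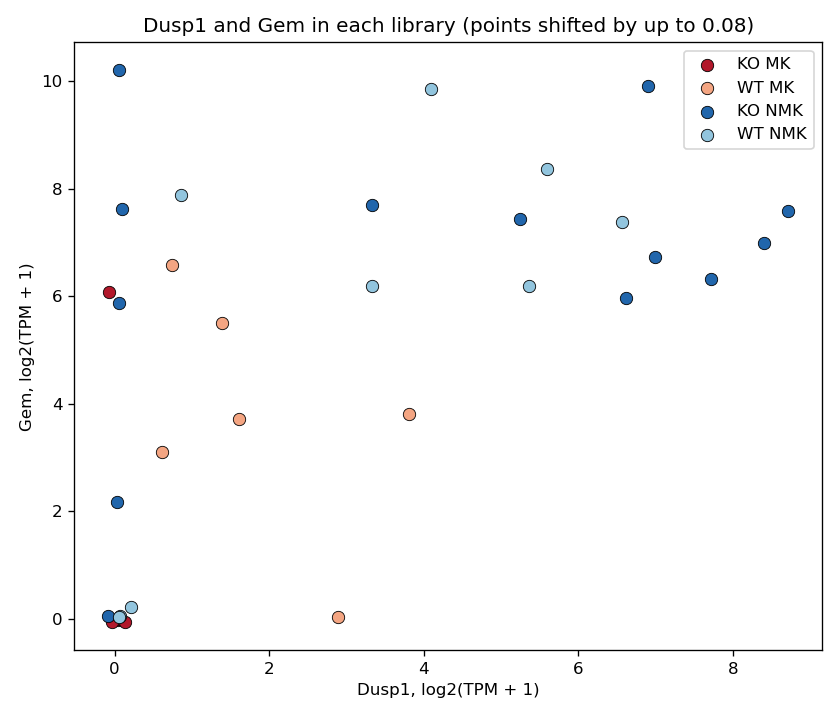
Dusp1 (horizontal) against Gem (vertical), both log2(TPM + 1), with 1 point per library coloured by group. In KO MK, 3 of 5 points lie at the origin and 1 just beside it, at 0.1 TPM of Dusp1, while the WT MK points stay below 13 TPM of Dusp1 and the points of highest Dusp1 are KO NMK.

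Of the AP-1 subunits, Jun (chr4:95049036-95052222) was at 3.5, 5.3, 0.1, 2.9 and 0 TPM in KO MK cells, against 1.8 to 65.8 TPM with a median of 4.25 in WT MK cells. The ranges overlap, and the highest WT MK value was that of B1-1. KO NMK cells had 0 to 95.4 TPM with a median of 18.9 and WT NMK cells 0.3 to 64.7 TPM with a median of 15.0. The difference was -2.16 (pooled SD 2.12) between KO MK and KO NMK cells and -1.54 (pooled SD 1.53) between KO MK and WT MK cells, each larger than its pooled SD by little. Without WT MK B1-1 the KO MK and WT MK difference was -0.91, no longer past the size limit. In the WT comparison of MK with NMK cells it was -0.58 (pooled SD 1.87), and in the NMK comparison of KO with WT cells 0.05 (pooled SD 2.19).

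Junb (chr8:84976909-84978748) followed another order. It was at 33.8, 31.8, 1.3, 25.0 and 64.9 TPM in KO MK cells and at 6.4 to 29.7 TPM with a median of 11.9 in WT MK cells, present in all 11. KO NMK cells were split, with 5 of 13 at 1 TPM or more and a highest value of 104.3 TPM, and WT NMK cells had 0 to 52.7 TPM with 7 of 9 at 1 TPM or more. No difference passed the size limit: 2.24 (pooled SD 2.76) between KO MK and KO NMK, 0.64 (1.65) between WT MK and WT NMK, 0.65 (1.35) between KO MK and WT MK, and -0.95 (2.66) between KO NMK and WT NMK cells. Without KO MK 2, the lowest MK cell, Junb was past the limit on the higher side both against KO NMK cells (3.04) and against WT MK cells (1.45).

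Fos (chr12:85473890-85477274) and Fosb (chr7:19302696-19310118) were listed at 0 in most cells. Fos reached 1 TPM in 4 of 33 cells, KO NMK 4A at 141.2, KO NMK 4B at 62.8, WT MK B1-1 at 68.0 and WT NMK 4B at 36.0 TPM. Fosb reached 1 TPM in 3 of 33, KO NMK B1-2a at 22.1, KO NMK 4B at 6.4 and WT NMK 4B at 3.3 TPM. Of these, B1-2a is a library of low housekeeping score, at 2.54. Fos was at 0 in all 5 KO MK cells, and Fosb in all 11 MK cells. The differences of Fos ran from -1.04 to 0.29, with pooled SDs of 1.85 to 2.20, and none of those of Fosb was larger than its pooled SD. Jun and Junb were therefore detected in far more cells than their partners, in 26 and 23 of 33.

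Egr1 (chr18:34861207-34864956) was at 7.1, 0, 0, 3.6 and 0 TPM in KO MK cells and at 0.6 to 17.4 TPM with a median of 2.55 in WT MK cells. KO NMK cells had 0 to 115.6 TPM with a median of 1.8, and WT NMK cells 0 to 69.1 TPM with a median at 0. WT NMK cells fell into 3 above 10 TPM and 6 at 0.4 TPM or less. The differences were -1.88 (pooled SD 2.81) between KO MK and KO NMK, 0.15 (2.24) between WT MK and WT NMK, -0.90 (1.36) between KO MK and WT MK, and 1.13 (2.96) between KO NMK and WT NMK cells, none past the size limit.

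Ier2 (chr8:84661331-84662852) was the member detected most often, at 1 TPM or more in 32 of 33 cells. It was at 43.1, 13.8, 23.9, 17.2 and 58.8 TPM in KO MK cells, against 17.9 to 59.9 TPM with a median of 29.1 in WT MK cells. KO NMK cells had 0.1 to 337.6 TPM with a median of 134.0, and WT NMK cells 2.4 to 99.7 TPM with a median of 37.2. KO MK and WT MK cells covered the same range, with a difference of -0.16 (pooled SD 0.76). Of 13 KO NMK cells, 8 were above the highest WT NMK cell, among them B1-2a, a library of low housekeeping score. However, the difference of 1.17 did not exceed the pooled SD of 2.11. Without KO NMK 3B, the cell at 0.1 TPM, it was 1.67 and past the size limit.

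Ier3 (chr17:35821713-35822911) was at 114.8, 51.8, 93.8, 52.5 and 59.5 TPM in KO MK cells, against 22.0 to 70.5 TPM with a median of 45.6 in WT MK cells. No MK cell lacked it, and the groups overlapped. KO NMK cells had 0 to 388.1 TPM with a median at 0, and WT NMK cells 0 to 665.0 TPM with a median of 95.6. Cells with 1 TPM or more were 6 of 13 KO NMK (19.2 to 74.9%) and 8 of 9 WT NMK (51.8 to 99.7%). The difference was 0.73 (pooled SD 0.61) between KO MK and WT MK cells, under the limit of 1. It was 3.08 (3.19) between KO MK and KO NMK, though -0.11 as a log2 ratio of mean TPM, -0.24 (2.42) between WT MK and WT NMK, and -2.58 (3.44) between KO NMK and WT NMK cells.

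Btg2 (chr1:134074865-134079155) was at 0, 0, 14.7, 32.7 and 184.8 TPM in KO MK cells. The WT MK cells had 35.7 to 381.0 TPM with a median of 46.7, KO NMK cells 0 to 44.8 TPM and WT NMK cells 0 to 31.7 TPM, both with a median at 0. No WT NMK cell reached the lowest WT MK cell. The difference between WT MK and WT NMK cells was 4.25 (pooled SD 1.90), higher than 99.3% of the 11562 genes compared. That between KO MK and WT MK cells was -2.69 (pooled SD 2.39), with 1 KO MK cell, B1-4, inside the WT MK range. Without WT MK B1-1, and likewise without KO MK 1A or 1B, this KO MK and WT MK difference was no longer past the size limit. Between KO MK and KO NMK cells it was 2.23 (2.46), and between KO NMK and WT NMK cells -0.67 (2.15). The KO MK and KO NMK value was 1.17 without KO MK B1-4, 0.60 without both KO MK libraries of few platelet transcripts and 0.23 among libraries without the prefix B1.

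**Figure D3:**
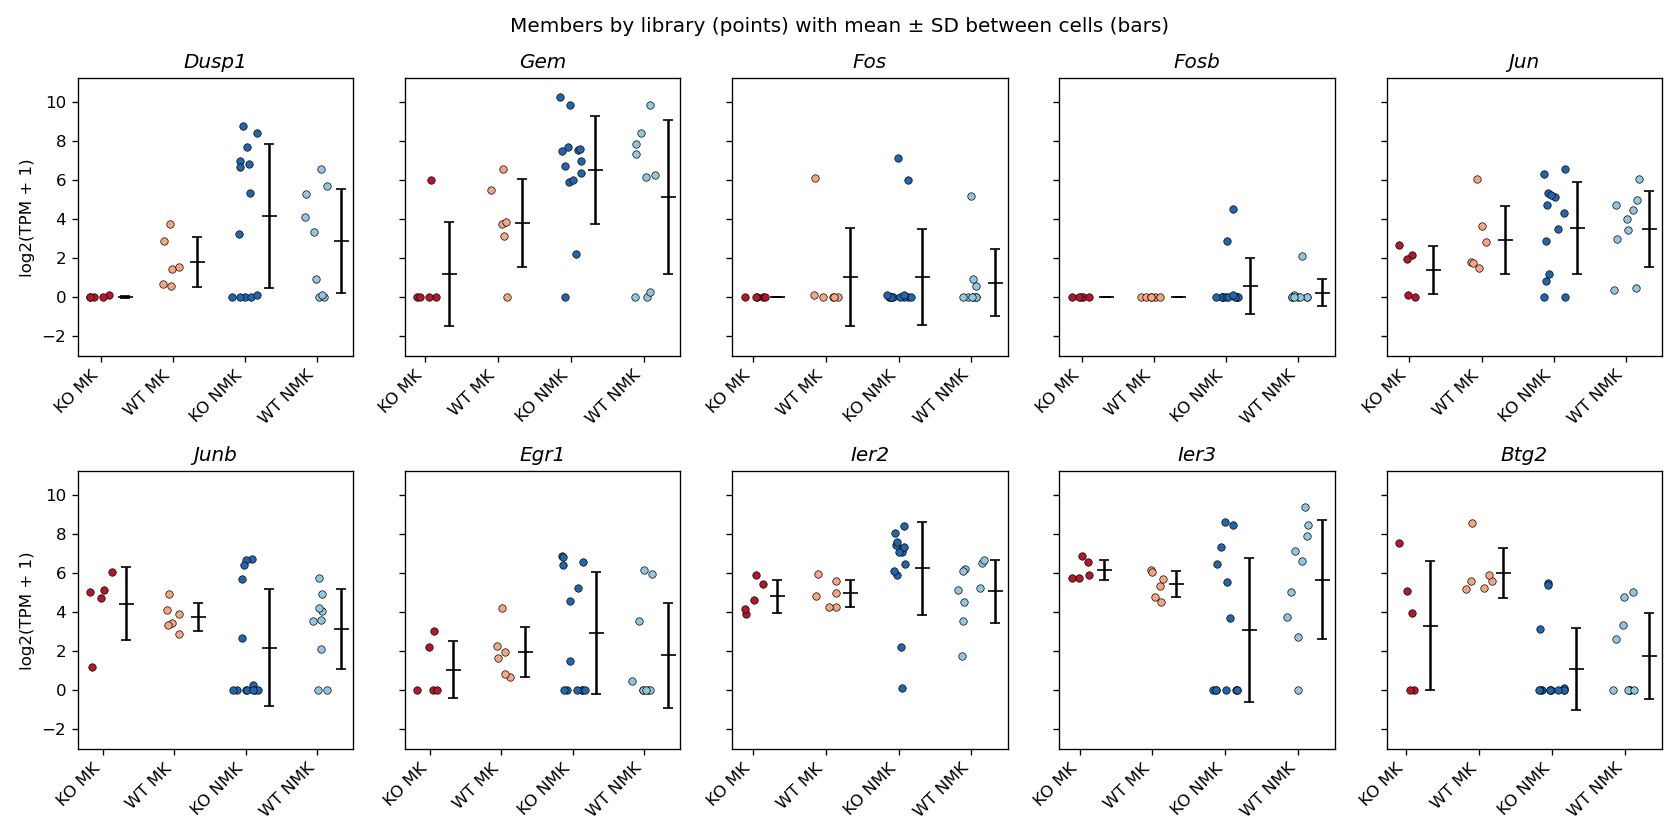
Each of the 10 genes as log2(TPM + 1) (vertical axis) in KO MK, WT MK, KO NMK and WT NMK cells, with 1 point per library and a bar for the mean ± SD between cells. Dusp1 is near 0 in all KO MK cells, Gem in 4 of 5, Ier2 and Ier3 vary less between MK cells than between NMK cells, and Btg2 stands highest in WT MK.

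Counted per comparison, KO MK against KO NMK cells had 3 of 10 members past the size limit on the lower side, Dusp1, Gem and Jun, and 0 on the higher side. Over all 13365 genes compared, 0.614% were past it on the lower side and 13.3% on the higher side. The members were chosen with earlier results of these data known. In each comparison the shares, and the ranks given above, therefore describe the members and are no test of them. The median difference was -1.23 over the members and 0.59 over all genes. Stem and progenitor markers moved with this comparison, 2 of 8 being lower in KO MK cells, and summed megakaryocyte markers ran from 116.3 to 53226 TPM in KO MK and from 56.2 to 841 TPM in KO NMK cells. Their part in the result was not tested. Without KO MK 2 and B1-4, the libraries with few platelet transcripts, Dusp1 (-4.16) and Gem (-6.51) were past the limit and Jun (-1.28) was not.

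WT MK against WT NMK cells had 1 of 9 members past the limit, Btg2, on the higher side, where 25.6% of 11562 genes stood, and 0 on the lower side, where 3.33% stood. Fosb averaged under 1 TPM in both groups and was not counted. Btg2 did not overlap between the groups, which held for 4.58% of genes on that side. The median difference was -0.10 over the 9 members and -0.17 over all 10, against 0.70 over all genes. In this comparison 9 of 10 megakaryocyte markers were higher and 5 of 8 stem and progenitor markers lower, and Ly6a was at 1.1 TPM or less in all WT MK cells. Their part in the result was not tested.

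KO MK against WT MK cells had 4 of 9 members past the limit, Dusp1, Gem, Jun and Btg2, all on the lower side, where 7.07% of 11796 genes stood, and 0 on the higher side, where 9.74% stood. Dusp1 did not overlap between the groups, which held for 1.85% of genes on that side. The median difference was -1.04 over the 9 members and -0.97 over all 10, against 0.09 over all genes. This count rested on few libraries. It was 1 (Dusp1) without WT MK B1-1 and 2 without WT MK 4, KO MK 1B or KO MK 2. It was 0 in the full table, and 2 (Dusp1 and Btg2) in the full table without libraries of low housekeeping score, a setting chosen after seeing the data. Without both few-platelet libraries, KO MK 2 and B1-4, Jun was at -0.66 and no longer past the limit, while Dusp1 (-1.82), Gem (-3.80) and Btg2 (-4.32) were, and Junb (1.18) passed on the higher side. With the 5 alike WT MK libraries replaced by their mean it was 6. Of the 8 stem and progenitor markers, 3 were higher in KO MK cells, Ly6a, Cd34 and Hoxa9, and their part in the result was not tested.

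KO NMK against WT NMK cells had 0 of 10 members past the limit, where 2.52% of 12835 genes stood on the higher and 2.19% on the lower side. The members' median difference was 0.31, against 0.20 over all genes. Each member's difference was smaller than its own pooled SD, and these SDs ran from 1.19 to 3.44. Of 8 stem and progenitor and 10 megakaryocyte markers, 0 were past the limit in this comparison. Of 7 erythroid markers, 6 averaged enough to be counted in KO and 3 in WT, and 2 were higher in MK cells in each. Only 1 of 6 lymphoid markers was counted, Nkg7, higher in KO MK against KO NMK, with its highest value, 1173.4 TPM, in KO MK 2. Of all genes, 13.3% were higher in MK cells in KO and 25.6% in WT. Between KO MK and WT MK cells 1 of 3 counted granulocyte-monocyte markers was higher, beside 9.74% of all genes. Of 2 counted stromal and endothelial markers 1 was lower, beside 7.07% of all genes. Only 1 of 6 mast cell and basophil markers was counted in each comparison, and it did not pass the limit.

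The comparisons share cells: KO MK and KO NMK cells each enter 2 of them, as do the WT groups, so the 4 sets of values are not independent. Whether the distance between MK and NMK cells itself differs between KO and WT was not tested. The values stand side by side as -4.13 and -1.08 for Dusp1, -5.31 and -1.33 for Gem, and 2.23 and 4.25 for Btg2, in KO and in WT, with the limit on the KO value of Btg2 given above.

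**Figure D4:**
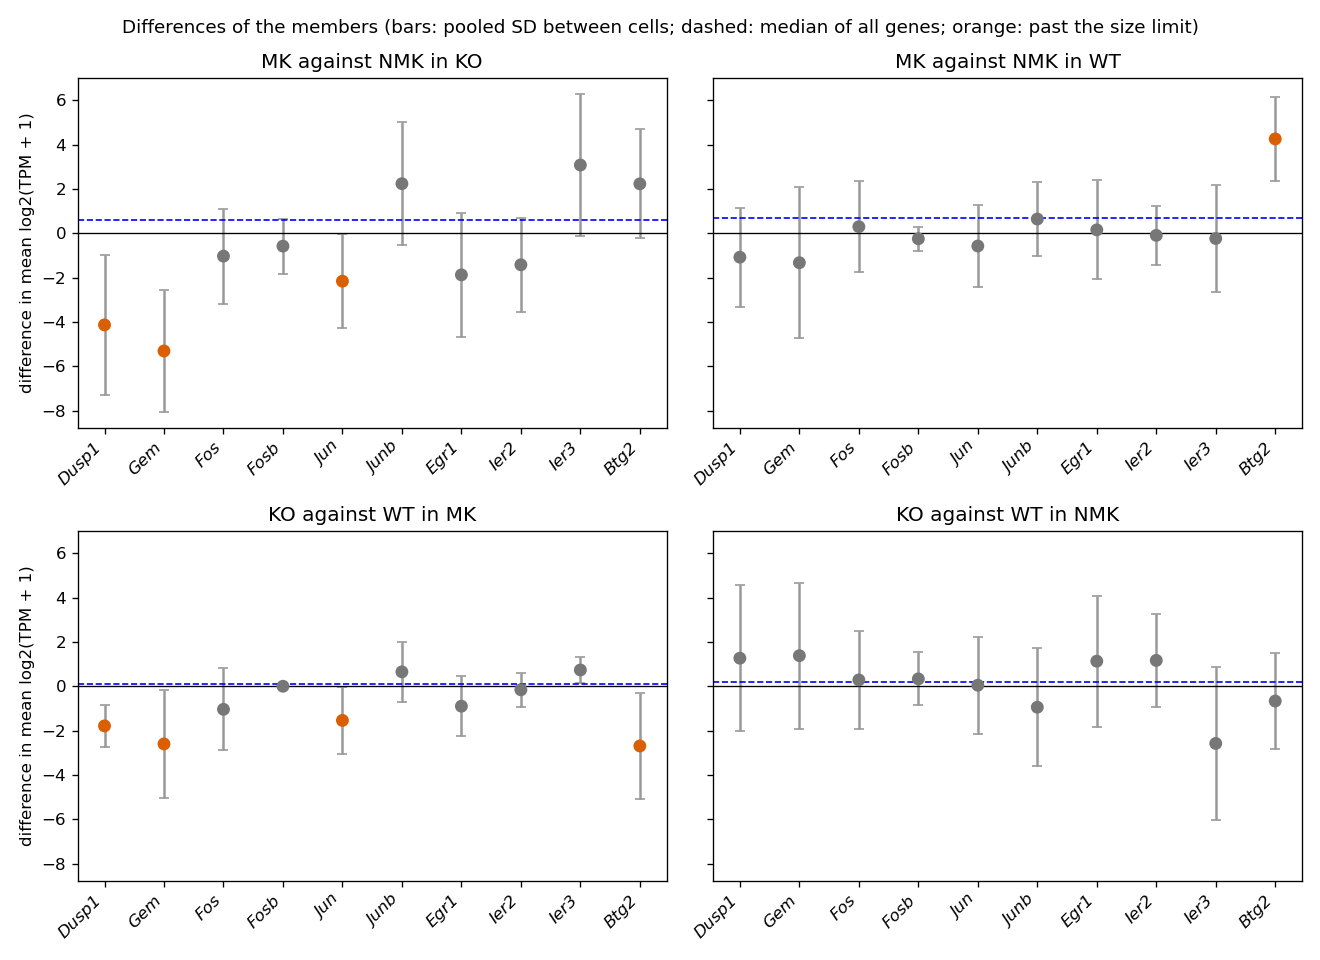
Difference in mean log2(TPM + 1) (vertical axis) of each gene in the 4 comparisons, with the pooled SD between cells as bars, the median of all genes as a dashed line and genes past the size limit in orange. Orange points are Dusp1, Gem and Jun for KO MK against KO NMK, Btg2 for WT MK against WT NMK, and Dusp1, Gem, Jun and Btg2 for KO MK against WT MK.

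A member score, the mean log2(TPM + 1) of a cell over the 10 genes, summarises the cells. It was 2.24 ± 0.60 in KO MK, 3.17 ± 0.76 in WT MK, 3.13 ± 1.54 in KO NMK and 2.99 ± 1.24 in WT NMK cells (SD between cells, n = 5, 6, 13 and 9). The difference was -0.93 (pooled SD 0.69) between KO MK and WT MK cells. It was -0.90 (1.36) between KO MK and KO NMK, 0.18 (1.08) between WT MK and WT NMK, and 0.14 (1.43) between KO NMK and WT NMK cells. Within libraries of the prefix B1 alone the KO MK and KO NMK difference was 0.34, the opposite sign, with 2 and 5 cells. KO NMK cells ranged from 0.59 to 5.35, the lowest being B1-1b, a library of low housekeeping score.

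NMK cells differed from each other in which members they held. KO NMK 4B and WT NMK 4B each had 9 of 10 members at 1 TPM or more, the most in their groups. KO NMK 3A and 3B each had 2 of 10, Gem with Ier2 in 3A and Gem with Jun in 3B, although their housekeeping scores were 9.56 and 9.64. Gem reached its highest value of 1226.7 TPM in 3A. In WT NMK 1A, at a score of 1.24, only Ier2, Jun and Junb reached 1 TPM, and 5475 genes were above 0, the fewest of the WT cells. WT NMK 2 had the highest Ier3 value, 665.0 TPM, with Ier2 and Btg2 as the other members at 1 TPM or more.

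Across the 20 NMK libraries with a housekeeping score of 6 or more, the 45 pairs of members had Pearson correlations of log2(TPM + 1) from -0.29 to 0.70 with a median of 0.19. These are descriptions over cells of 2 genotypes that share libraries with many values at 0. The highest was Fos with Fosb (r = 0.70, rank correlation 0.46), which rests on 2 cells with both at 1 TPM. Dusp1 with Ier2 had r = 0.57 (rank correlation 0.52), Ier3 with Btg2 r = 0.57 (rank correlation 0.64), Egr1 with Ier2 r = 0.54 (rank correlation 0.60) and Dusp1 with Jun r = 0.53 (rank correlation 0.53).

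The genes with the most similar pattern were sought among 4901 genes that averaged at least 10 TPM, over the 31 libraries with a housekeeping score of 6 or more, by Pearson r of log2(TPM + 1). Jun was among the 3 most similar to Dusp1 (r = 0.61), after Plscr4 (0.63) and beside Por (0.61), and Dusp1 was the most similar to Jun. Ier2 was among the 3 for Egr1 (0.54), between Enoph1 (0.55) and Nmral1 (0.54). Gem was most like Ssrp1 (0.66), Fam69b (0.63) and Ivns1abp (0.62). Junb was most like Mccc2 (0.60), Ing4 (0.56) and Cog6 (0.56). Ier2 was most like Guk1 (0.71), Pole3 (0.71) and Chmp6 (0.70), and Ier3 like Pgam5 (0.74), Cirh1a (0.66) and Ppil3 (0.66). Btg2 was most like Tubb6 (0.75), Rab26os (0.68) and Plk2 (0.67), the last a stress-induced kinase and itself an early response gene. MK and NMK cells are pooled in these values, so a gene that differs between them can rank high for that alone. The alike WT MK libraries are among the 31, so these are not 31 separate values. Each r is among the highest of many, and whether it exceeds what such a search would give was not tested.

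Other genes of the same pathways, from lists chosen with earlier results known, were counted in the same way. Of 7 other MAP kinase phosphatases, 2 were higher and 0 lower in MK against NMK cells of KO, and 3 were higher and 0 lower in MK against NMK cells of WT. In each comparison 6 of the 7 averaged enough to be counted. Of all genes, 13.3% were higher and 0.614% lower in KO, and 25.6% and 3.33% in WT. Between KO MK and WT MK cells, 9.74% were higher and 7.07% lower. These shares belong beside each count of the lists below, and whether a count departs from them was not tested. Dusp4, which acts in the nucleus as Dusp1 does, averaged 8.58 TPM in KO MK and 2.82 TPM in KO NMK cells, a difference of 2.74 (pooled SD 1.29). The WT MK cells averaged 8.07 TPM and the WT NMK cells 6.22 TPM, a difference of 2.03 (1.68). Dusp2 averaged 45.2 TPM in KO MK and 4.62 TPM in WT MK cells, a difference of 2.91 (1.03), opposite in sign to Dusp1. Its values ran from 15.8 to 112.3 TPM and from 0.5 to 8.0 TPM. The share of all genes without overlap on that side was not counted. Dusp16 was the only other phosphatase past the limit in that comparison, at -1.16 (0.53).

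Of 9 other AP-1 family genes, Jund and Batf were higher and 0 lower when KO MK were set against KO NMK cells. Jund averaged 26.9 TPM in KO MK and 12.0 TPM in KO NMK cells (difference 1.54, pooled SD 1.52), and was also higher in KO MK than in WT MK cells, where it averaged 9.50 TPM (1.34, pooled SD 0.84). Batf averaged 93.7 TPM in KO MK and 49.4 TPM in KO NMK cells (3.36, pooled SD 3.02). It averaged 49.4 TPM in KO NMK against 175.7 TPM in WT NMK cells (-3.49, pooled SD 3.15). Of 13 other early transcription factors, the Egr, Nr4a and Klf genes and Myc among them, 0 passed the limit in any of the 4 comparisons.

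Among 18 other early response genes, 4 were higher and 0 lower in MK than in NMK cells in KO, and likewise 4 and 0 in WT. Of these genes 16 averaged enough to be counted in KO and 12 in WT, where 13.3% and 25.6% of all genes were higher, so the WT count is near the share of all genes. Gadd45g, a growth arrest and stress gene, averaged 293.0 TPM in KO MK and 6.12 TPM in KO NMK cells (5.82, pooled SD 2.34), and 123.8 TPM in WT MK against 24.4 TPM in WT NMK cells (4.81, pooled SD 2.42). Plk2 averaged 28.9 TPM in KO MK and 4.95 TPM in KO NMK cells (4.04, pooled SD 1.55), and 57.5 TPM in WT MK against 19.3 TPM in WT NMK cells (2.92, pooled SD 2.42). Ppp1r15a, which restores translation after stress, averaged 71.3 TPM in KO MK, 21.1 TPM in WT MK and 48.4 TPM in KO NMK cells. It was higher in KO MK than in WT MK cells by 1.79 (pooled SD 0.62) and than in KO NMK cells by 3.39 (2.82). Nfkbia, the NF-kB inhibitor, was the other gene past the limit when KO were set against WT MK cells, with 58.6 TPM in KO MK and 19.7 TPM in WT MK cells (1.31, pooled SD 0.75). Of the 18, 0 were past the limit on the lower side in KO MK cells, where Dusp1 and Gem stood, against either KO NMK or WT MK cells.

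Of 4 mRNA decay factors, Zfp36l1, which promotes the decay of AU-rich transcripts, was higher in MK than in NMK cells in KO (2.22, pooled SD 1.44) and in WT (2.55, pooled SD 2.53). Its mean TPM in WT ran the other way, 31.5 in MK and 36.8 in NMK cells, the highest NMK cell being at 225.7 TPM. It was lower in KO MK than in WT MK cells, 11.3 and 31.5 TPM (-1.78, pooled SD 1.29). Zfp36l2 was lower in WT MK cells, 53.1 TPM against 243.1 TPM in WT NMK cells (-2.17, pooled SD 0.83). In Btg2's own family of 4 other genes, Btg3 was higher in WT MK against WT NMK cells (2.05, pooled SD 2.01), and Tob2 lower in KO MK than in WT MK cells (-1.53, pooled SD 1.26). Of the 3 relatives of Gem, only Rrad averaged 1 TPM in any group, and it was higher in KO MK, at 0 to 42.7 TPM, than in WT MK cells, at 0 to 0.2 TPM (1.83, pooled SD 1.57).

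Of 9 MAP kinases and their kinases, 0 passed the limit in KO MK against KO NMK and 4 were higher in WT MK against WT NMK, among them Mapk14, the p38 kinase (1.71, pooled SD 1.32). Here and for the lists that follow, 13.3% of all genes were higher in MK cells of KO and 25.6% in those of WT. Of 6 upstream factors, SRF, its partners and CREB, only Elk3 passed, lower in WT MK against WT NMK cells (-1.73, pooled SD 1.25) and higher in KO MK than in WT MK cells (1.20, pooled SD 0.82). Of 10 heat shock genes, 8 averaged enough to be counted in KO and 7 in WT. In KO 1 was higher in MK than in NMK cells, the co-chaperone Bag3 (2.37, pooled SD 2.13), and in WT 4 were, Hsp90aa1 among them (1.09, pooled SD 0.39). Of 8 p53 targets, 3 were higher in KO MK against KO NMK cells, with Ccng1 at 374.6 TPM in KO MK and 77.9 TPM in KO NMK cells (4.10, pooled SD 3.08), and 0 passed the limit in the other 3 comparisons.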

How the data were processed

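The authors deposited 2 tables of TPM with 1 decimal, a full table of 46 libraries and a version of 33 without outliers. Per the submitters' processing notes, the tools were STAR 2.6.1e, featureCounts 1.6.2, cutadapt 1.9.1 and FastQC 0.11.7, with mm10 as the build. How TPM was computed, on which annotation, and how outliers were chosen is not given in the sources used here. Every library has the same TPM total, so depth is unknown and abundant transcripts lower all others.

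Columns were matched to samples by title or description. Another 44 of the 90 samples were not analysed here, and 1 column matched no sample and was left aside. Each library is 1 cell without a named animal, so each group was 1 sample and no test was run. A pseudocount of 1 was used, which understates differences of low genes, and shares have Clopper-Pearson 95% intervals. Positions and promoters came from RefSeq (GRCm38.p6).

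The members and gene lists were chosen with earlier results of these data known. Named beside the members were at most the 2 highest and 2 lowest genes of a list past the size limit, and 3 similar genes for each member at 1 TPM or more in at least 25% of the libraries, without predicted, mitochondrial, ribosomal protein and small RNA genes and pseudogenes. Alternatives were the full table, other pseudocounts, filters and scalings, medians, ratios of means, libraries left out and libraries merged. The code was tested on simulated data. Computing used matplotlib 3.10.9, scipy 1.17.1, pandas 2.3.3 and numpy 2.4.6 under Python 3.11.15.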

Additional observations from a re-analysis of the deposited data

Results flagged for a closer look

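Of 27 groups of 4 to 10 cells in which a member varied, 7 held a cell far from the others. KO NMK, with 13 cells, was too large for the limits used and was not screened. The limit used would pass about 1 in 20 groups of normally distributed values by chance, a rate that does not apply where most values are at 0, as in several of these. In KO MK cells these were Gem in B1-4 at 62.7 TPM with the other cells at 0, Junb in replicate 2 at 1.3 TPM, the lowest, and Dusp1 in replicate 2 at 0.1 TPM, the smallest value the table can hold above 0. In WT MK cells replicate B1-1 stood out with Fos at 68.0 TPM and Btg2 at 381.0 TPM. In WT NMK cells replicate 4B did so with Fos at 36.0 TPM and Fosb at 3.3 TPM.

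The 13 libraries that the authors left out hold 14 member values above the highest kept WT cell of the same kind. In KO MK libraries these were Junb at 48.8 TPM and Ier3 at 203.6 TPM in replicate 1, and Fosb at 0.9 TPM in B1-1 and 0.4 TPM in B1-1a. In KO NMK 5A they were Dusp1 at 97.0, Fosb at 16.9 and Jun at 118.1 TPM. In WT MK libraries they were Ier2 at 170.5 TPM in B1-2 and 95.2 TPM in B1-1b, Btg2 at 1119.6 TPM in B1-2b, and Fosb at 13.0 TPM in B1-1b, 0.2 TPM in B1-1a and 0.1 TPM in each of B1-2a and B1-2b. Of the libraries with such values only KO MK 1 and KO MK B1-1 had a housekeeping score above 6, at 9.22 and 6.94. KO NMK B1-1a, also left out but without such a value, had a score of 10.03.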

How the results depend on the processing

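No paired analysis was possible because no result came from a test and each group counted as 1 sample. Of 1140 member differences recomputed over 47 settings, 1117 moved by less than the pooled SD and 23 moved further. The sign was opposite to that reported in 51, spread over 12 differences, none of them among the 8 past the size limit. These counts include every setting that leaves out 1 library, which can hardly move a mean by that SD, so they do not measure stability. Large shifts can also stay under the SD. For KO MK against KO NMK cells, Ier3 was 3.08 as reported and -0.11 as a ratio of means, and Btg2 2.23 as reported and 0.23 without prefix B1. For KO MK against KO NMK cells, members past the size limit on the lower side, 3 as reported, were 1 in the full table and 6 as ratios of mean TPM. On the higher side, 0 as reported, they were 1 with a pseudocount of 0.1, with ratios of means or with median-ratio rescaling, 3 with medians over cells or within prefix B1, and 0 to 3 with each library left out. The score difference was -2.27 as a ratio of means. For WT MK against WT NMK cells, 1 was higher as reported, 0 in the full table and 2 with the 5 alike WT MK libraries merged, also in the setting added after seeing the data that leaves out the low housekeeping and few-platelet libraries too. As ratios of means 1 was lower. The score difference changed sign in 4 of 11 settings and was -0.11 without WT MK B1-1. For KO MK against WT MK cells, 4 lower as reported, the count was 0 in the full table or with a pseudocount of 10, 2 in the full table without low housekeeping libraries (also added after seeing the data), and 1 to 4 with each library left out. On the higher side it was 1 with medians, without the few-platelet MK libraries or within prefix B1, and 0 to 1 with each left out. The score difference was -1.85 with a pseudocount of 0.1, -1.65 merged, -1.86 within prefix B1 and -1.76 in the first added setting, but -0.26 in the full table and -0.64 without WT MK B1-1. For KO NMK against WT NMK cells, 2 were lower with medians and 1 higher as ratios of means, and leaving out each library gave 0 to 1 on either side, lower without WT NMK 1A and higher without KO NMK 3B. The score difference was -0.12 with a pseudocount of 0.1. The causes were not tested. Prefix B1 has no WT NMK cell, so it gave no value there. The number of cells and the unknown depth limit every value.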
